A study of Drosophila melanogaster with 6 samples.

Results

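The translation factor genes are the genes whose symbol begins with eIF, for the initiation factors, or with eEF, for the elongation factors, in the gene names that the authors deposited with their data. They number 51 of the 17494 genes in the count table. They were measured by RNA sequencing in indirect flight muscle, the fibrillar muscle that powers the wings, dissected from Drosophila melanogaster pupae at 64 h after puparium formation (APF), in 3 libraries of M1BP RNAi muscle and 3 libraries of WT muscle. M1BP RNAi pupae carried Mef2-GAL4 and a UAS-M1BP RNAi transgene, and WT pupae carried Mef2-GAL4 without the RNAi transgene. Both groups were staged at the same temperature and differed in no other labelled way. Each library was made from polyadenylated RNA of the pooled muscles of several pupae. Mef2-GAL4 is expressed throughout muscle development and in all muscles, and per the study's text also in some neurons and possibly in the fat body, so the transgene was not restricted to flight muscle. The RNAi was a single transgenic line. The study's methods give 3 independent biological replicates as a general rule, and RNA prepared in triplicate. Neither they nor the labels say that the pools of a group came from separate crosses, so p-values measure the spread between these pools.

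Translation begins when eIF2 with its bound GTP brings the initiator tRNA to the small ribosomal subunit, together with eIF1, eIF1A, eIF5 and the large scaffold eIF3. The cap-binding protein eIF4E, the adaptor eIF4G and the RNA helicase eIF4A prepare the messenger RNA, eIF5B joins the large subunit at the start codon, and eIF2B recharges eIF2 with GTP. Elongation then relies on eEF1, which delivers aminoacyl tRNA, and on eEF2, which moves the ribosome along by a codon at a time. A growing flight muscle fibre makes its sarcomere and mitochondrial proteins with this machinery.

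The libraries held between 42215400 and 54890681 counts on genes. M1BP was given by 3.00, 3.57 and 2.63 CPM (read counts scaled with TMM, the trimmed mean of M values, to a common library size) in M1BP RNAi, against 8.19, 6.97 and 8.84 CPM in WT, a fall by 1.38 ± 0.15 on the log2 scale (SE, n = 3 each, adjusted p = 0.000954 by edgeR's quasi-likelihood test). The 3 WT libraries were not alike. WT replicate 3 lay at -47.6 on the second principal component, where the other 5 libraries lay between -5.84 and 22.1. Mitochondrially encoded genes made up 26.2%, 44.2% and 26.3% of all counts in WT replicates 1, 2 and 3. Their share was 15.1%, 23.4% and 19.7% in M1BP RNAi, so it was lower in every M1BP RNAi library than in every WT library. The dosage compensation RNA roX1, which is made in males, was at 30.7, 30.2 and 63.1 CPM in M1BP RNAi and at 0.041, 0.206 and 22.3 CPM in WT, so WT replicate 3 was nearer to M1BP RNAi than to the other WT libraries in this RNA. The labels do not give the sex of the pupae. The summed flight muscle markers were between 91640 and 96750 CPM in M1BP RNAi and between 128300 and 146800 CPM in WT, with 8 of 10 markers lower in every M1BP RNAi library and 1 of 10 called. Summed haemocyte markers were between 34.4 and 46.9 CPM in M1BP RNAi and between 22.2 and 26.5 CPM in WT, with 2 of 6 markers higher in every M1BP RNAi library and none called. Over all genes tested, 25.0% were lower in every M1BP RNAi library than in every WT library, and 21.5% were higher. The summed levels of fat body, neuron, myoblast, and trachea and tendon markers overlapped between the groups, no testis marker reached 1 CPM, and bam and aly were at 0. The part of these differences in the results on translation factors was not tested, and in such bulk samples fewer cells of a type and less RNA per cell cannot be told apart.

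Of the 51 factor genes, 41 passed edgeR's filter on low counts and were tested among 8806 genes. Called genes had an adjusted p of 0.001 or less and a change of at least 1.5-fold. Under M1BP RNAi, 8 of the 41 fell and 1 rose. The share lower was 19.5% of the factor genes tested, against 2.88% of all genes tested, and the share higher was 2.44%, against 2.20% of all genes tested. The genes that fell were eIF3b, eIF3c, eIF3h, eIF3i, eIF3l, eIF3m, eIF4A and eIF5B, by 1.63 to 2.11 times, and the gene that rose was eIF6, by 3.70 times. The other 32 factor genes tested were not called. At an adjusted p of 0.05 or less with no fold minimum, 17 were lower (41.5%, against 16.9% of all genes tested) and 5 were higher (12.2%, against 13.8%). The median log2 fold change of the 41 was -0.18, beside -0.02 for all genes tested, with 30 below 0 and 11 above 0. DESeq2 with the same thresholds called 9 factor genes lower, where it called 5.04% of all genes it tested, and 3 higher, where it called 6.04%.

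The direction of the small differences depended on the scale to which the libraries were brought. Scaled to the total count on nuclear genes in place of TMM, an alternative chosen after the data were seen, the log2 fold changes had a median of 0.30 over all genes and of 0.14 over the factor genes, with 14 of the 41 below 0 and 27 above 0. On that scale 1 factor gene was called lower (eIF4A, where 1.53% of all genes were called lower) and 3 higher (eIF6, eIF5 and eIF2D, where 4.97% of all genes were called higher). At an adjusted p of 0.05, 10 factor genes were lower and 12 higher, and over all genes 534 were lower and 2805 higher, beside 1489 lower and 1212 higher with TMM. The 9 called genes kept their direction on both scales, the 8 lower ones between -0.76 and -0.39 on the log2 scale and eIF6 at 2.21. The changes given below are relative to TMM, which sets the typical gene near 0, and the log2 fold changes of the 41 factor genes on the other scale were higher by 0.315 to 0.321.

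**Figure D1:**
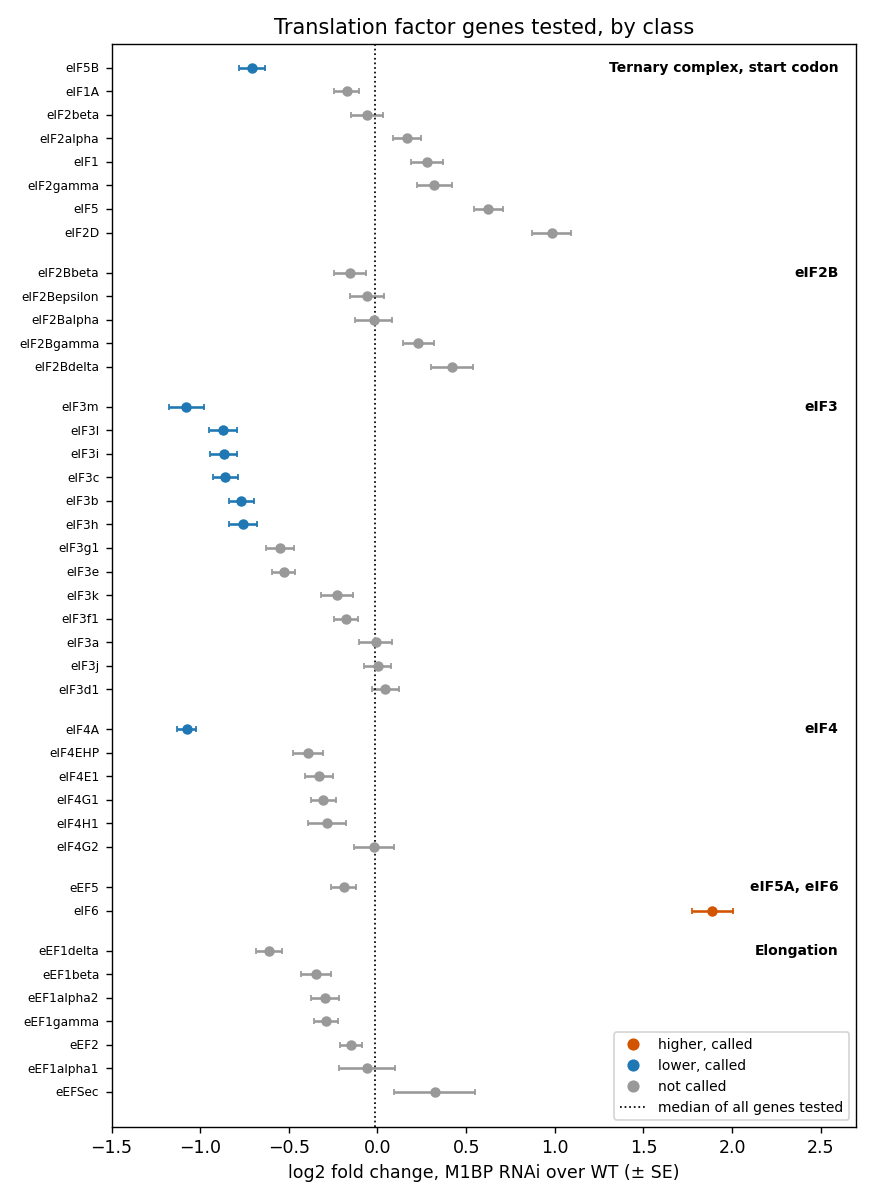
Log2 fold change of each of the 41 factor genes tested, M1BP RNAi over WT, with SE bars from the fit of 3 libraries against 3, grouped by role. Points are coloured by call at an adjusted p of 0.001 and 1.5-fold, and the dotted line is the median of all 8806 genes tested (-0.02). The 6 called eIF3 genes lie between -1.08 and -0.76, eIF4A lies at -1.08, and eIF6 stands alone at 1.89.

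In 23 of the 41 factor genes every M1BP RNAi library was below every WT library in CPM (56.1%, against 25.0% of all genes tested), and in 8 every M1BP RNAi library was above every WT library (19.5%, against 21.5%). Replicates of the factor genes were close to each other. The median coefficient of variation over the 41 genes was 6.01% in M1BP RNAi and 6.08% in WT, beside 9.03% and 13.0% over all genes tested. The factor genes also had a higher median level, 46.1 CPM per kb of exon beside 2.97, and genes of like level were not compared. The most variable factor gene was eEF1alpha1 in WT, at 22.8%.

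eIF3 is the largest initiation factor, a complex that holds the small ribosomal subunit and the other factors together. Its 16 genes in the table include 3 near-silent copies, eIF3d2, eIF3f2 and eIF3g2, that were not tested. Of the 13 tested, 6 fell (46.2%, against 2.88% of all genes tested) and none rose. With the looser threshold of 0.05, 8 of the 13 were lower (61.5%, against 16.9%). The log2 fold changes of the 13 had a median of -0.55, and of -0.23 when scaled to nuclear totals. On that scale none of the 13 was called, and at 0.05 there were 7 lower and 3 higher. Over all genes, 534 were lower and 2805 higher at 0.05 on that scale. In human eIF3 the subunits a, c, e, f, h, k, l and m, which carry PCI or MPN domains, form the structural core, and b, d, g, i and j lie around it. The genes that fell came from both: 4 of the 8 core subunits (eIF3c, eIF3h, eIF3l and eIF3m) and 2 of the 5 others (eIF3b and eIF3i).

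eIF3m, a PCI-domain subunit of the core, had 29.0, 28.6 and 32.2 CPM in M1BP RNAi, against 69.7, 57.1 and 62.8 CPM in WT. That is 2.11-fold lower, with a log2 fold change of -1.08 ± 0.10 (SE, edgeR adjusted p = 0.000482). eIF3l, another PCI-domain subunit, had 40.0, 41.4 and 41.5 CPM in M1BP RNAi, against 74.7, 69.2 and 80.7 CPM in WT. In both genes the lowest WT library was well above the highest M1BP RNAi library. The log2 fold change of eIF3l was -0.87 ± 0.08 (edgeR adjusted p = 0.000467).

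eIF3c, the core subunit that in yeast contacts eIF1 and eIF5, had 58.9, 57.6 and 55.8 CPM in M1BP RNAi, against 102, 99.0 and 111 CPM in WT. The difference was -0.86 ± 0.07 on the log2 scale (edgeR adjusted p = 0.000351). eIF3h, the MPN-domain partner of eIF3f in human eIF3, had 41.6, 42.0 and 45.9 CPM in M1BP RNAi, against 75.6, 75.0 and 68.4 CPM in WT. The WT library in which eIF3h was lowest, replicate 3, was the one in which eIF3b, eIF3c, eIF3i and eIF3l were highest. The log2 fold change of eIF3h was -0.76 ± 0.08 (edgeR adjusted p = 0.000747). Its exons overlap those of senju on the opposite strand over 16.8% of its length, and senju had 715 counts in the 6 libraries together, beside 15285 for eIF3h.

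eIF3b and eIF3i bind each other in a module at the periphery of eIF3. eIF3b had 109, 115 and 108 CPM in M1BP RNAi, against 188, 178 and 200.4 CPM in WT, with a log2 fold change of -0.77 ± 0.07 (edgeR adjusted p = 0.000536). eIF3i had 39.6, 42.1 and 41.2 CPM in M1BP RNAi, against 74.9, 70.0 and 79.6 CPM in WT, with a log2 fold change of -0.87 ± 0.07 (edgeR adjusted p = 0.000392). The third member of this module, eIF3g, has the tested gene eIF3g1, which was lower in every M1BP RNAi library without being called. It had 30.5, 34.0 and 35.8 CPM in M1BP RNAi and 49.5, 49.5 and 47.7 CPM in WT, with a log2 fold change of -0.55 ± 0.08 (edgeR adjusted p = 0.0033).

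The core subunit gene eIF3e stood just short of the threshold as well, since its log2 fold change of -0.53 ± 0.07 was less than 1.5-fold and its adjusted p was 0.0016. The remaining eIF3 genes showed small differences. eIF3k and eIF3f1 had log2 fold changes of -0.23 ± 0.09 and -0.18 ± 0.07 (edgeR adjusted p of 0.106 and 0.099). In eIF3a, eIF3d1 and eIF3j the libraries of the groups overlapped. eIF3a, the largest subunit and the one that spans the complex, had 180, 188 and 181 CPM in M1BP RNAi and 178, 168 and 208 CPM in WT. Its log2 fold change was -0.01 ± 0.09 (edgeR adjusted p = 0.948), and that of eIF3d1, the subunit that in human cells can bind the cap itself, was 0.04 ± 0.08 (edgeR adjusted p = 0.706). The loosely attached subunit eIF3j had the smallest change of the 13 with TMM, a log2 fold change of 0.00 ± 0.08 (edgeR adjusted p = 0.999). Scaled to nuclear totals, eIF3a, eIF3d1 and eIF3j were at 0.31, 0.36 and 0.32 (edgeR adjusted p of 0.049, 0.0088 and 0.0109).

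Per kb of exon, the unit in which genes of unlike length can be compared, the 13 eIF3 genes were further apart in M1BP RNAi than in WT. The highest of the 13 was 2.94, 3.26 and 3.36 times the lowest in M1BP RNAi libraries and 2.28, 2.22 and 2.23 times the lowest in WT libraries. The SD of their log2 CPM per kb was 0.521, 0.569 and 0.543 in M1BP RNAi and 0.300, 0.325 and 0.328 in WT. These values describe the libraries and carry no test. eIF3b was the highest eIF3 gene in WT, at a mean of 70.3 CPM per kb, and at 41.3 CPM per kb in M1BP RNAi it lay below eIF3a, eIF3d1, eIF3f1 and eIF3j.

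**Figure D2:**
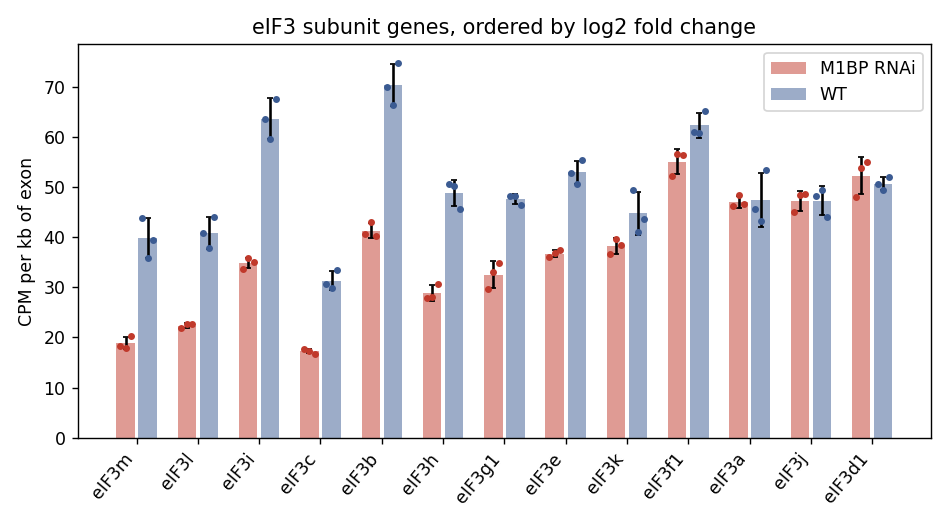
Level of the 13 tested eIF3 genes in CPM per kb of exon, with M1BP RNAi left of WT for each gene. Bars are means, error bars are SD over 3 libraries, points are single libraries, and genes run from the most negative log2 fold change (eIF3m, -1.08) to the most positive (eIF3d1, 0.04). In these TMM-scaled values the bars of eIF3a, eIF3j and eIF3d1 are level between the groups, while those of eIF3m to eIF3h separate.

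The eIF4 factors bind and unwind the messenger RNA. eIF4A, the RNA helicase among them, fell with little spread between libraries. It had 348, 359 and 352 CPM in M1BP RNAi, against 745, 748 and 741 CPM in WT. It was 2.11-fold lower, with a log2 fold change of -1.08 ± 0.06 (SE, n = 3 each, edgeR adjusted p = 5.44e-05), the smallest p among the 41 factor genes. The spread within each group was small beside the gap between the groups. eIF4A lies on chromosome arm 2L at positions 5981764 to 5985909 of the dm6 build.

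The partners of eIF4A in the cap-binding complex had smaller differences, near 0 when scaled to nuclear totals, and were not called. The cap-binding protein gene eIF4E1 had 197, 215 and 226 CPM in M1BP RNAi and 253, 268 and 280.1 CPM in WT, with a log2 fold change of -0.33 ± 0.08 (edgeR adjusted p = 0.020). The scaffold gene eIF4G1 had 714, 695 and 693 CPM in M1BP RNAi and 930, 806 and 860.2 CPM in WT, with a log2 fold change of -0.30 ± 0.07 (edgeR adjusted p = 0.0195). The groups did not overlap in either gene. Per kb, the level of eIF4A was 1.29, 1.37 and 1.34 times that of eIF4G1 in M1BP RNAi and 2.12, 2.46 and 2.28 times that of eIF4G1 in WT. Against eIF4E1 it was 1.59, 1.51 and 1.40 times in M1BP RNAi and 2.65, 2.51 and 2.38 times in WT.

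eIF4EHP, which binds the cap but not eIF4G and so represses translation, had a log2 fold change of -0.39 ± 0.09 (edgeR adjusted p = 0.0143). eIF4H1, named for the cofactor that stimulates eIF4A, had one of -0.28 ± 0.11 (edgeR adjusted p = 0.0936). eIF4G2, in Drosophila the eIF4G form needed in the male germ line, was low, at 13.5, 11.7 and 11.3 CPM in M1BP RNAi and 11.5, 11.8 and 13.7 CPM in WT. Its log2 fold change of -0.02 ± 0.11 (edgeR adjusted p = 0.919) was the smallest among the eIF4 genes. Exons of eIF4EHP and eIF4G2 overlap a gene on the same strand over 7.0% and 8.6% of their length, so a part of their counts cannot be assigned to either gene.

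**Figure D3:**
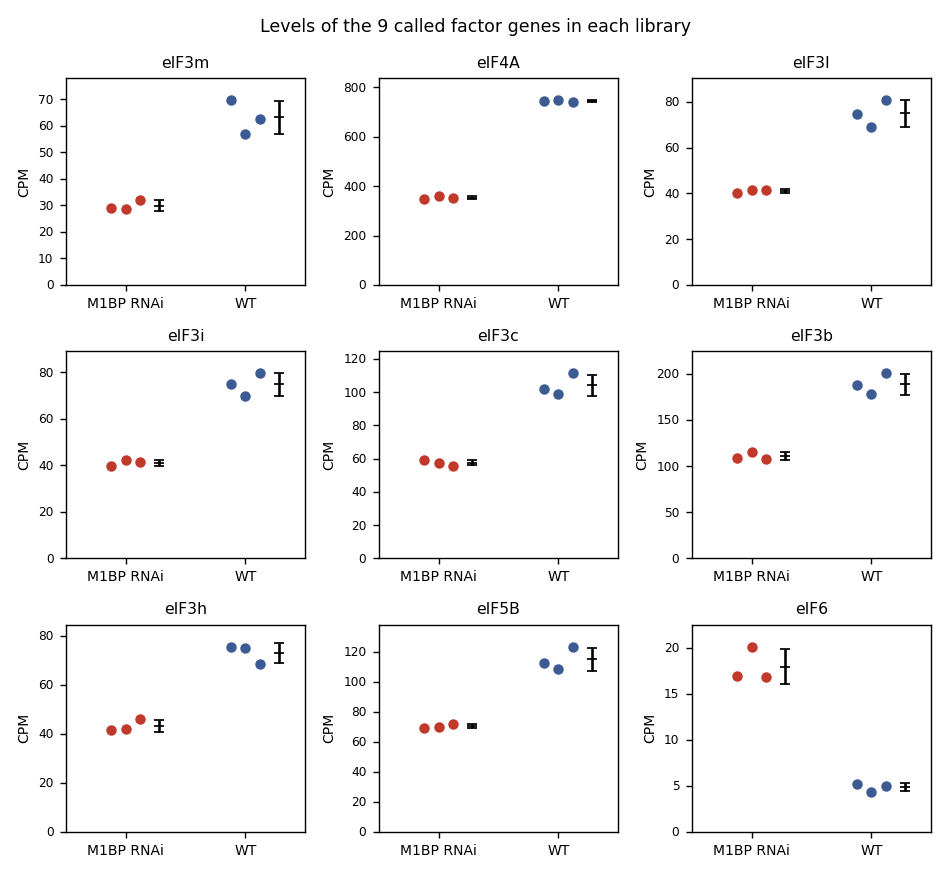
CPM of the 9 called factor genes in each library, M1BP RNAi left and WT right, with the mean and SD of 3 libraries beside the points, on axes that start at 0. The groups do not overlap in any of the 9 genes. eIF6, at bottom right, is the one gene that is higher in M1BP RNAi, at 16.9 to 20.1 CPM against 4.36 to 5.21 CPM.

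The genes of the ternary complex and of start codon selection differed in both directions. eIF5B, the GTPase that joins the large subunit to the small one, had 69.2, 70.1 and 71.7 CPM in M1BP RNAi, against 113, 109 and 123 CPM in WT, with a log2 fold change of -0.71 ± 0.07 (edgeR adjusted p = 0.000722). It was the only gene of the 8 in this class that edgeR called with TMM and its own filter on low counts. DESeq2, and edgeR scaled to nuclear totals, called eIF2D and eIF5 higher. With TMM and no filter, or 10 counts in every library, edgeR called eIF2D higher as well. eIF2D, which in other systems can deliver tRNA without eIF2 and helps to recycle ribosomes, had 23.9, 26.1 and 25.0 CPM in M1BP RNAi and 13.5, 10.8 and 13.6 CPM in WT. Its log2 fold change of 0.98 ± 0.11 was the largest of the class, and its adjusted p of 0.00108 lay just outside the threshold, while that of eIF5B lay just inside.

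eIF5, which makes eIF2 hydrolyse its GTP, had 212, 218 and 243 CPM in M1BP RNAi and 143, 138 and 155 CPM in WT, with a log2 fold change of 0.63 ± 0.08 (edgeR adjusted p = 0.00197). That value is shared with another gene. CG46312 lies on the same strand over 80.8% of the exon length of eIF5 and had 51020 counts over the 6 libraries, beside 52102 for eIF5, so the counts of these genes cannot be told apart.

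The subunits of eIF2 itself differed little with TMM. The GTP-binding subunit gene eIF2gamma had a log2 fold change of 0.32 ± 0.10 (edgeR adjusted p = 0.0479), with 16.0% of its exon length shared with Su(var)3-9 on the same strand. eIF2alpha, the subunit whose phosphorylation slows initiation under stress, had one of 0.17 ± 0.08 (edgeR adjusted p = 0.152). eIF2beta had the smallest of the class, -0.06 ± 0.09 (edgeR adjusted p = 0.667), at 106, 122 and 120.0 CPM in M1BP RNAi and 120.0, 112 and 131 CPM in WT. The scanning factors eIF1 and eIF1A differed in opposite directions with TMM, by 0.28 ± 0.09 and -0.17 ± 0.07 on the log2 scale. Neither was called (edgeR adjusted p of 0.0561 and 0.107). Scaled to nuclear totals, eIF1 and eIF1A were at 0.59 and 0.14. On that scale all 3 eIF2 subunits were above 0, with eIF2gamma at 0.64 and eIF2alpha at 0.48 (edgeR adjusted p of 0.0036 and 0.0039). At an adjusted p of 0.05, 2805 of all 8799 genes tested were higher on that scale.

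eIF2B is the exchange factor that gives eIF2 new GTP. None of its 5 genes was called by edgeR's test or by DESeq2, and 2 of the 5 had an unadjusted p below 0.05 in edgeR, where 41.4% of all genes tested had one. The largest change was that of the regulatory subunit gene eIF2Bdelta, with 25.6, 29.1 and 27.4 CPM in M1BP RNAi and 18.5, 19.0 and 23.8 CPM in WT. This is a log2 fold change of 0.42 ± 0.12 (edgeR adjusted p = 0.0362). The smallest was that of eIF2Balpha, at -0.02 ± 0.10 (edgeR adjusted p = 0.903). Per kb the 5 genes lay close together, between 9.93 and 16.0 CPM per kb over all libraries.

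eIF6 binds the large ribosomal subunit, takes part in its assembly and keeps it from joining the small one too early. It had 16.9, 20.1 and 16.9 CPM in M1BP RNAi, against 5.21, 4.36 and 4.96 CPM in WT. It was 3.70-fold higher, with a log2 fold change of 1.89 ± 0.12 (SE, n = 3 each, edgeR adjusted p = 0.000103), the largest change of the 41 factor genes in either direction. The lowest M1BP RNAi library was more than 3 times the highest WT library. eIF6 lies on the minus strand of chromosome arm 2R at positions 23849246 to 23850301 of dm6. Per kb it was at 17.0 CPM in M1BP RNAi and 4.59 CPM in WT, both under the median of the factor genes tested (46.1 CPM per kb) and over that of all genes tested (2.97 CPM per kb).

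The other factor of its class is eEF5, the Drosophila eIF5A, which helps ribosomes form difficult peptide bonds and carries the modified residue hypusine. Its level was 326, 355 and 367 CPM in M1BP RNAi and 416, 396 and 384 CPM in WT. The groups did not overlap, but the log2 fold change was -0.19 ± 0.07 and was not called (edgeR adjusted p = 0.0899).

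Elongation factor genes held 4 of the 5 highest levels per kb among the 51. Of the 7, 0 were called by edgeR, while 5 of the 7 had an unadjusted p below 0.05 (against 41.4% of all genes tested) and DESeq2 called 1 lower. The log2 fold changes of the 7 had a median of -0.29 with TMM and of 0.03 when scaled to nuclear totals, so no direction can be given for the class. eEF1delta, a nucleotide exchange subunit of eEF1, had the largest difference, with 94.7, 102 and 109 CPM in M1BP RNAi and 150.1, 160 and 158 CPM in WT. Its log2 fold change was -0.61 ± 0.08 (edgeR adjusted p = 0.00153), and it was the gene that DESeq2 called. eEF1beta, the other exchange subunit, and eEF1gamma, the structural subunit that holds them, had log2 fold changes of -0.35 ± 0.09 and -0.29 ± 0.07 (edgeR adjusted p of 0.0229 and 0.0179). In all 3 of these genes every M1BP RNAi library was below every WT library in CPM.

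The tRNA carrier eEF1alpha is encoded by a pair of close copies. eEF1alpha2, the more abundant copy here, was at 3617, 3906 and 4124 CPM in M1BP RNAi and at 4586, 4644 and 5080 CPM in WT, and its reads made up between 34.5% and 37.5% of all factor gene counts in every library. Its log2 fold change was -0.30 ± 0.08 (edgeR adjusted p = 0.0301). eEF1alpha1 was at 524, 504 and 487 CPM in M1BP RNAi and at 510.1, 653 and 415 CPM in WT, with the smallest log2 fold change of the class, -0.06 ± 0.16 (edgeR adjusted p = 0.818). Its WT libraries lay on both sides of the M1BP RNAi libraries. The headers of the count table name uniquely mapped reads, so reads that fit both copies would be missing from both, and the split between them is uncertain.

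The translocase gene eEF2 was at 1570, 1534 and 1648 CPM in M1BP RNAi and at 1809, 1761 and 1709 CPM in WT, with a log2 fold change of -0.15 ± 0.06 (edgeR adjusted p = 0.115). eEFSec, which delivers selenocysteine tRNA, was the lowest factor gene tested, at 0.922, 0.982 and 1.14 CPM in M1BP RNAi and 0.972, 0.687 and 0.755 CPM in WT. With 20 to 58 counts per library, its log2 fold change of 0.32 ± 0.23 was not distinguishable from 0 at this depth.

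**Figure D4:**
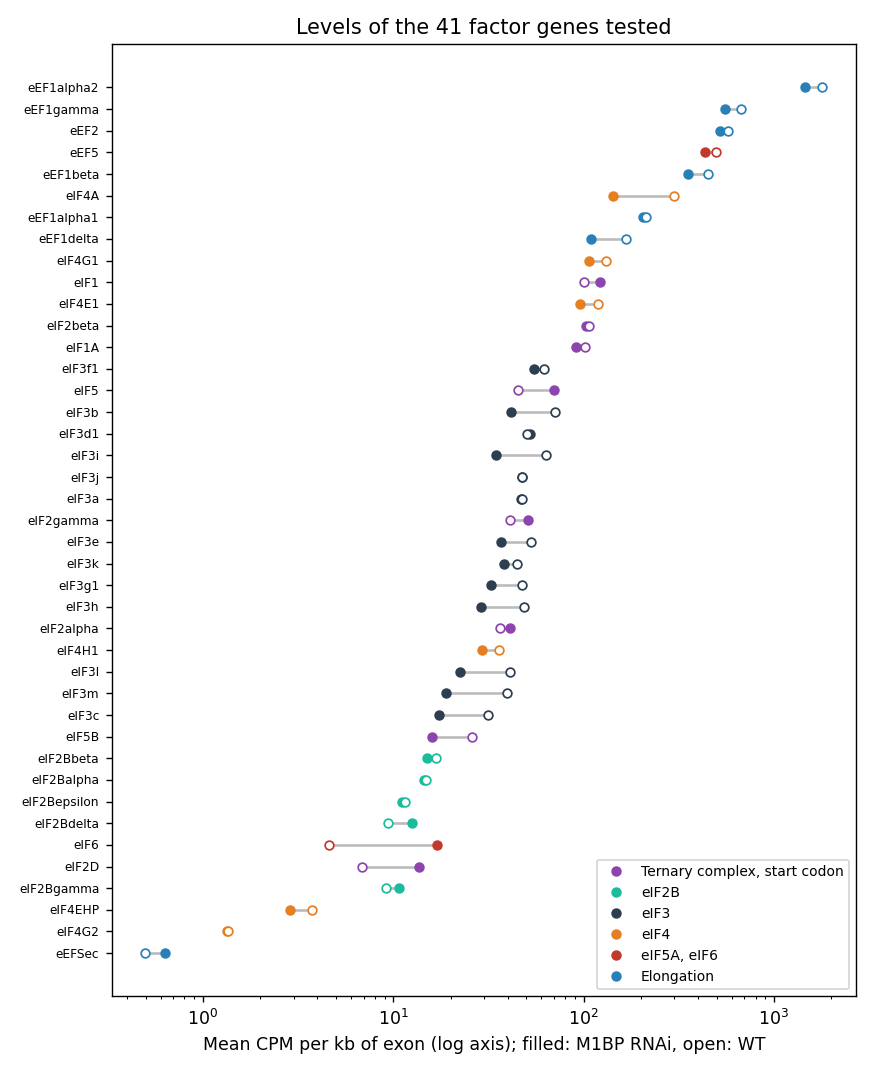
Mean level of the 41 factor genes tested in CPM per kb of exon on a log axis, with filled points for M1BP RNAi and open points for WT, coloured by role and ordered by the mean of all libraries. Levels run from eEFSec at 0.564 to eEF1alpha2 at 1629 CPM per kb. The long grey connecting lines mark eIF6, eIF2D and eIF5 with the filled point on the right, and eIF4A and the called eIF3 genes with the filled point on the left.

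By level per kb over all 6 libraries, eEF1alpha2 (1629 CPM per kb) was followed by eEF1gamma (611), eEF2 (547), eEF5 (463) and eEF1beta (402), and then by eIF4A (221) as the highest initiation factor. In M1BP RNAi eIF4A was at 142 ± 2.34 CPM per kb and eEF1alpha1 at 205 ± 7.51 CPM per kb, whereas in WT eIF4A was at 300.2 ± 1.40 CPM per kb and eEF1alpha1 at 214 ± 48.7 CPM per kb (SD, n = 3), so the order of these neighbours differed between the groups. The median of the 41 was 46.1 CPM per kb, beside 2.97 for all genes tested. Together the 51 genes took 1.61%, 1.66% and 1.71% of the counts on nuclear genes in M1BP RNAi and 1.58%, 1.60% and 1.68% in WT. In TMM-scaled values their sum was 10480, 11020 and 11410 CPM in M1BP RNAi and 13260, 13180 and 13530 CPM in WT. The shares overlapped between the groups, whereas the TMM-scaled sums did not.

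The 10 factor genes that were not tested are mostly copies of the genes above. eIF3d2, eIF3f2, eIF3g2, eIF4E3, eIF4E4, eIF4E5, eIF4E6, eIF4E7 and eIF4H2 had between 0 and 9 counts in any library, and no more than 21 in all 6 together. A count of 3, the level that a count of 0 allows, is 0.0542 to 0.103 CPM in these libraries, for counting error only, so at this depth these copies were at or near the limit of detection in both groups. eIF4B, a cofactor of eIF4A with no second copy among the members, was also low, with 20, 13 and 8 counts in M1BP RNAi and 8, 4 and 4 counts in WT. Whether the restriction to uniquely mapped reads lowered its count was not tested.

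The calls rested on all 6 libraries to differing degrees. eIF4A was called in 5 of the 6 fits that left out a library, and with M1BP RNAi replicate 2 left out its adjusted p was 0.0012. eIF6 was called in 4 of 6 and was missed without M1BP RNAi replicate 3 and without WT replicate 1, where its adjusted p was 0.00121. Without WT replicate 3, 5 of the 8 lower calls were made, and without any other single library at most 1. By gene, eIF3c, eIF3h, eIF3i and eIF3l were called in 1 of 6 fits, and eIF3b, eIF3m and eIF5B in 0 of 6. The adjusted p of the 9 called genes was never above 0.00824 in these fits, and the change of each kept its direction. At the threshold of 0.05, 14 of the 22 factor genes past it in the full data were past it in all 6 fits, 11 lower and 3 higher, and 8 were not. With roX1 as a covariate, 1 factor gene (eIF4A) was called lower and none higher, the log2 fold changes of the called genes lay between -1.07 and -0.67 for the lower ones, and eIF6 was at 1.90 with an adjusted p of 0.00147.

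The members are spread over 6 chromosome arms or chromosomes, with 15 on 3R, 13 on 2R, 10 on 3L, 7 on X, 5 on 2L and 1 on chromosome 4. The 9 called genes included none of the 7 on X. With so few genes this carries no result, and the share of X among all called genes was not counted. Another gene began on the opposite strand within 1000 bases upstream of the widest annotated start of 23 of the 41 tested factor genes (56.1%), beside 45.0% of all genes tested, and of 7 of the 9 called genes. Of those 7 neighbours, 6 were tested and none was called, where 2.20% of all genes tested were called higher and 2.88% lower. eIF4A and chic, the profilin gene, start 746 bases apart, and chic had a log2 fold change of 0.34 ± 0.08 (edgeR adjusted p = 0.0238). eIF3m and CG8323 start 226 bases apart, and CG8323 was at -0.04 ± 0.07 (edgeR adjusted p = 0.763). eIF3l and Nrx-IV start 422 bases apart, with Nrx-IV at -0.06 ± 0.11 (edgeR adjusted p = 0.734). Patronin, 347 bases from eIF3b, was at -0.27 ± 0.08 (edgeR adjusted p = 0.0484) and armi, 340 bases from eIF5B, was at -0.49 ± 0.49 (edgeR adjusted p = 0.507). CG8323, Nrx-IV, Patronin and armi were below 0 like their factor genes, and of these only Patronin was further from 0 than its SE. The antisense RNA gene asRNA:CR45928, 29 bases from eIF6, was at -0.09 ± 0.35 (edgeR adjusted p = 0.876). The difference within a pair was not tested.

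Beyond the factors named eIF and eEF, 31 other genes of translation and its control were looked at, and all were tested. Among them 3 fell (9.68%, against 2.88% of all genes tested) and 1 rose (3.23%, against 2.20%). Their median log2 fold change was -0.09, or 0.23 when scaled to nuclear totals. On that scale 2 were called lower (Rheb and Rack1) and 2 higher (pelo and crc). With TMM crc was at 0.49 ± 0.07 and was not called (edgeR adjusted p = 0.00264). The list was chosen with earlier results of these data known, so its shares, here and below, describe the list and carry no test. Rheb, the small GTPase that activates the Tor kinase complex, had 10.7, 11.0 and 11.5 CPM in M1BP RNAi, against 37.0, 40.2 and 38.5 CPM in WT. It was 3.49-fold lower (log2 fold change -1.80 ± 0.08, edgeR adjusted p = 2.41e-05) and was called in all 6 fits that left out a library.

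Rack1, a scaffold protein on the small ribosomal subunit, had 427, 447 and 457 CPM in M1BP RNAi, against 901, 876 and 854 CPM in WT, with a log2 fold change of -0.98 ± 0.06 (edgeR adjusted p = 0.000107). RpS6, the ribosomal protein phosphorylated by S6 kinase, had 484, 544 and 555 CPM in M1BP RNAi, against 903, 885 and 836 CPM in WT, with a log2 fold change of -0.73 ± 0.08 (edgeR adjusted p = 0.000826). The gene that rose was pelo, which rescues stalled ribosomes, with 35.3, 40.0 and 38.6 CPM in M1BP RNAi, against 15.7, 14.4 and 15.5 CPM in WT. The difference was 1.32 ± 0.08 on the log2 scale (edgeR adjusted p = 0.000107). In the fits that left out a library Rack1 and pelo were called in 3 of 6 each, missed without M1BP RNAi replicate 2, M1BP RNAi replicate 3 or WT replicate 1, and RpS6 in 0 of 6, with adjusted p values up to 0.00195, 0.00152 and 0.00753.

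Partners of these genes were not called by edgeR, though DESeq2 at the same thresholds called HBS1 and nero higher and DENR lower. HBS1, the GTPase that acts with pelo, had a log2 fold change of 0.61 ± 0.11 (edgeR adjusted p = 0.00621), and nero, which completes hypusine on eEF5, had one of 1.18 ± 0.17 (edgeR adjusted p = 0.00287). DENR, the partner of MCTS1 in reinitiation and a relative of eIF2D, was at -0.68 ± 0.12 (edgeR adjusted p = 0.00546). Tor itself, at -0.34 ± 0.13, and Thor, the inhibitor that sequesters eIF4E, at 0.47 ± 0.44, were not called (edgeR adjusted p of 0.0935 and 0.468). At an adjusted p of 0.05, 11 of the 31 were lower (35.5%, against 16.9% of all genes tested) and 4 were higher (12.9%, against 13.8%).

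**Figure D5:**
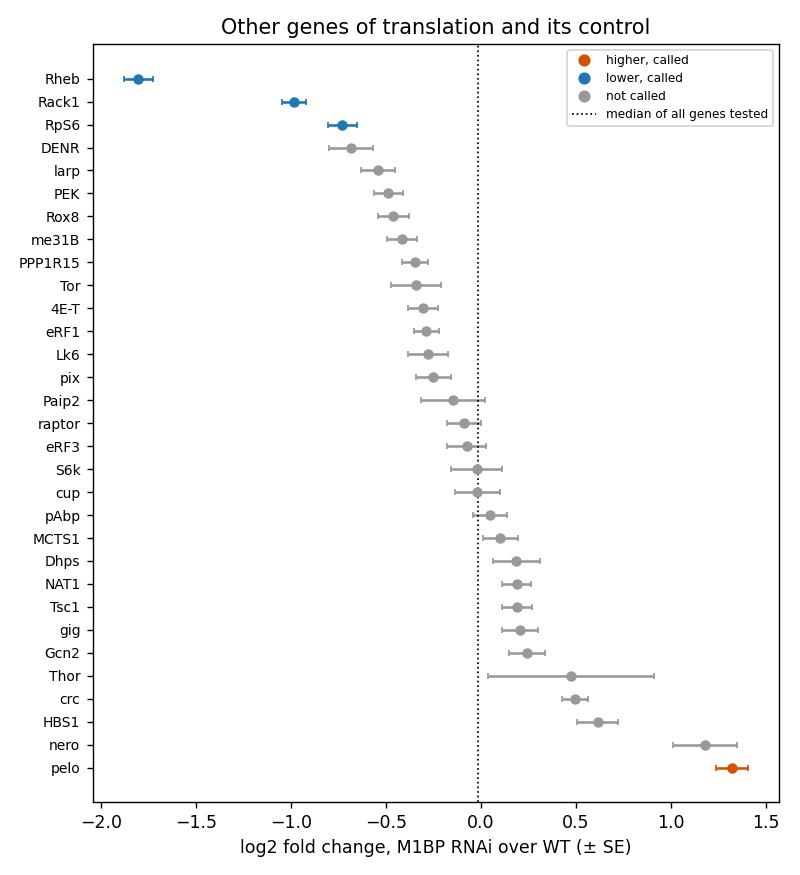
Log2 fold change of 31 other genes of translation and its control, M1BP RNAi over WT, with SE bars from the same fit of 3 libraries against 3. Rheb (-1.80), Rack1 (-0.98) and RpS6 (-0.73) were called lower and pelo (1.32) was called higher, and the dotted line is the median of all genes tested.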

How the data were processed

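RNA was sequenced from 3 M1BP RNAi and 3 WT pools of flight muscle, grouped by their titles. The authors deposited raw counts per gene with summed exon lengths and, per the file headers, kept uniquely mapped reads on dm6. Per the submitters' processing notes Subread 2.0.3 and featureCounts were used. The aligner's settings are not given in the sources used here. A deposited table of the authors' own comparison (fold changes and p-values) served only for gene names. All 51 members matched the Ensembl annotation by position and symbol, and the 1 line naming no gene held 0 counts.

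The counts were tested with edgeR 4.0.16 (R 4.3.3): TMM scaling, edgeR's filter on low counts, quasi-likelihood test and Benjamini-Hochberg adjustment over all genes tested. Calls needed an adjusted p of 0.001 and 1.5-fold, as in the study's methods, which used DESeq2. The SE is the log2 fold change over the square root of F. Replicate pairs all differed beyond sampling noise. The code was tested on simulated counts with known changes. Members and lists were chosen with earlier results of these data known. Full statistics were given for called members and for the largest and smallest change in each class, and for further members by role. Alternatives were DESeq2 1.42.0, RLE scaling, other filters and thresholds, no mitochondrial genes, a replicate block, roX1 as a covariate, scaling to nuclear totals and each library left out.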

Additional observations from a re-analysis of the deposited data

How the results depend on the processing

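The count of factor genes called lower was 8, and it was 9 with DESeq2, 8 with no filter, with 10 counts in every library or with no fold minimum at 0.001, and 7 with RLE scaling or without mitochondrial genes. It was 17 at an adjusted p of 0.05, 1 with roX1 as a covariate or scaled to nuclear totals, and between 0 and 5 with a library left out. The count called higher was 1, and it was 3 scaled to nuclear totals or with DESeq2 (eIF5 and eIF2D besides eIF6), 2 with no filter or with 10 counts in every library, 5 at an adjusted p of 0.05, 0 with roX1 as a covariate, and between 0 and 1 with a library left out. DESeq2 called 5.04% of the genes it tested lower and 6.04% higher. The deviations of same-numbered libraries had correlations of 0.307, -0.0436 and 0.268. M1BP RNAi replicates 1 and 3 correlated best with the WT library of their own number, and M1BP RNAi replicate 2 with WT replicate 3 (0.155). Whether the numbers mark shared batches cannot be told from these values, and the labels do not say. With the replicate block 1 factor gene was called lower and 1 higher. Of the other translation genes, 3 were called lower and 1 higher. With DESeq2 3 were higher, scaled to nuclear totals 2 were higher, at an adjusted p of 0.05 there were 11 lower and 4 higher, with roX1 as a covariate 1 was lower and 0 higher, and with a library left out between 1 and 2 were lower and between 0 and 1 higher. The cause of these changes was not tested, beyond the fewer samples or residual degrees of freedom of some fits.

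None of the 9 called factor genes changed direction under any alternative run. Uncalled genes did. Scaled to nuclear totals, 16 of the 41 factor genes went to above 0, among them eIF4G1 (0.01), eEF1alpha2 (0.02) and eEF1gamma (0.03), which had been lower at an adjusted p of 0.05 with TMM. On that scale eEF1alpha1 was at 0.26, eEF5 at 0.13, eIF2Balpha at 0.29, eIF2beta at 0.26 and eIF4G2 at 0.30. eIF2Balpha was at 0.0007 with DESeq2, 0.0056 with RLE scaling, 0.0010 with no filter and 0.0140 without mitochondrial genes, and between -0.102 and 0.0682 with a library left out. eIF4G2 was at 0.0055 with RLE scaling, 0.0004 with 10 counts in every library, 0.0015 with no filter and 0.0167 without mitochondrial genes, and between -0.103 and 0.113 with a library left out. eEF1alpha1 was at 0.28 with roX1 as a covariate and between -0.152 and 0.145 with a library left out. With a library left out, eIF2beta was between -0.0994 and 0.0492 and eIF3j between -0.0211 and 0.05. The depth limits the 10 untested genes and eEFSec. Scaling to nuclear totals, chosen after the data were seen, moved the median over all genes to 0.30, and no other alternative moved it past 0.0801.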

Other observations

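A further initiation factor gene stands in the deposited names under its older symbol CG7414, which the reference annotation calls eIF2A, and was chosen after its value was seen. It had 234, 260 and 256 CPM in M1BP RNAi and 199, 215 and 199 CPM in WT, with a log2 fold change of 0.29 ± 0.07 (edgeR adjusted p = 0.0225), and was not called.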
